A study of Mus musculus with 12 samples.

Results

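Transcript levels of the SR protein and hnRNP genes, the families that hold most of the general regulators of splice site choice, were examined in mouse embryonic fibroblasts (MEFs) with and without RTF2. The members were all genes whose mouse symbol begins with Srsf and a digit or with Hnrnp, plus Tra2a and Tra2b, which gave 33 of the 24100 genes in the table, 13 of the SR family and 20 hnRNPs. The row of 1 pseudogene, Hnrnpa1l2-ps2, was left out. RTF2-deficient MEFs were Rtf2-/lox and WT MEFs were Rtf2+/+ cells from littermates, and both genotypes received Cre by retrovirus and were harvested 72 hrs later, so the control cells had met the virus and the recombinase too. The cells were immortalized with SV40 per the study's methods. There were 2 lines, isolated from different mothers, with 3 libraries for each line and genotype, hence 12 libraries in 4 groups. The 3 libraries of a group are called technical replicates by the study, so p-values measure the spread within groups, and the 2 lines are the only replicates at the level of the embryo. The question behind the comparison comes from yeast and plants, where RTF2 has been tied to splicing: whether the RNA levels of the regulators of splicing differed when RTF2 was removed from MEFs.

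SR proteins bind exonic sequences through an RNA recognition motif and recruit the spliceosome through a tail rich in arginine and serine, which the SRPK and CLK kinases phosphorylate. The hnRNPs coat nascent transcripts, often oppose SR proteins at the same exons, and also act in export, stability and translation of mRNA. Many genes of both families hold a conserved exon whose inclusion sends the transcript to nonsense-mediated decay, by which the proteins hold down their own level. Counts per gene add up all transcripts of a gene and do not separate these forms.

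Rtf2 itself was counted at 44.9, 44.8 and 47.2 CPM (TMM-normalized read counts relative to library size) in WT line 1 and at 5.63, 5.44 and 6.29 CPM in RTF2-deficient line 1. In line 2 it was counted at 57.8, 52.9 and 50.9 CPM in WT and at 6.66, 6.49 and 6.33 CPM in RTF2-deficient cells. The genotypes did not overlap, and the log2 fold change over both lines was -3.01 with a standard error (SE) of 0.0567 (edgeR's quasi-likelihood test, Benjamini-Hochberg adjusted p = 2.45e-11). Library totals lay between 39360167 and 44695002 counts. The 10 fibroblast markers summed to between 21957 and 34994 CPM in a library, and the 7 epithelial markers to between 2.08 and 14.0 CPM, with 5 of the 7 under 1 CPM in every library. Among markers of other cell types, Krt18 of the epithelial list (log2 fold change 0.74) and Kdr of an endothelial one (0.58) were higher in RTF2-deficient cells by edgeR's quasi-likelihood test (Benjamini-Hochberg adjusted p = 0.0381 and 0.0492). Cldn4 was called higher too (adjusted p = 0.00417), from at most 0.0441 CPM in WT, which is under the 3 counts a library's 0 allows, and at most 0.866 CPM in RTF2-deficient cells. The other tested markers of these lists were not called and had no common sign. They were Krt8 at 0.93, Epcam at -0.34 and Cdh1 at -0.18 for epithelium and Tek at -0.03 for endothelium. For the 3 genes called, their part in any result was not tested. A list of 12 interferon-stimulated genes varied most between libraries, from a median of 0.94 to 9.20 on the log2 CPM scale.

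All 33 members were detected and passed the filter on low counts. Per kilobase of transcript, the scale on which levels of different genes are compared here, the highest level was that of Hnrnpa3 at 538 ± 43.8 CPM per kb (SD over 12 libraries). Hnrnpa2b1 followed at 536 ± 64.0 and Hnrnpa1 at 474 ± 82.8 CPM per kb, and these 3 genes of the hnRNP A type, which bind UAG-like silencer motifs in exons and introns, overlapped each other's spread. Hnrnpk, a protein with KH domains that binds C-rich RNA, stood at 343 ± 24.3 CPM per kb. Hnrnpf, which binds runs of G, and Hnrnpab came next at 289 ± 16.7 and 288 ± 27.4 CPM per kb. The highest SR gene, Srsf2, had a level of 166 ± 22.4 CPM per kb and ranked 7 among the 33 members, followed by Srsf3 at 148 ± 14.5 CPM per kb. Srsf5 was the third SR gene at 101 ± 11.5 CPM per kb. The lowest was Srsf12, an SR-like gene, at 0.227 ± 0.117 CPM per kb, with between 16 and 74 counts in a library. Hnrnpr and Hnrnph3 were next lowest at 6.16 and 11.3 CPM per kb. The length used for Hnrnpr was that of a transcript of 21452 bases, so its level per length depends on that choice.

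**Figure D1:**
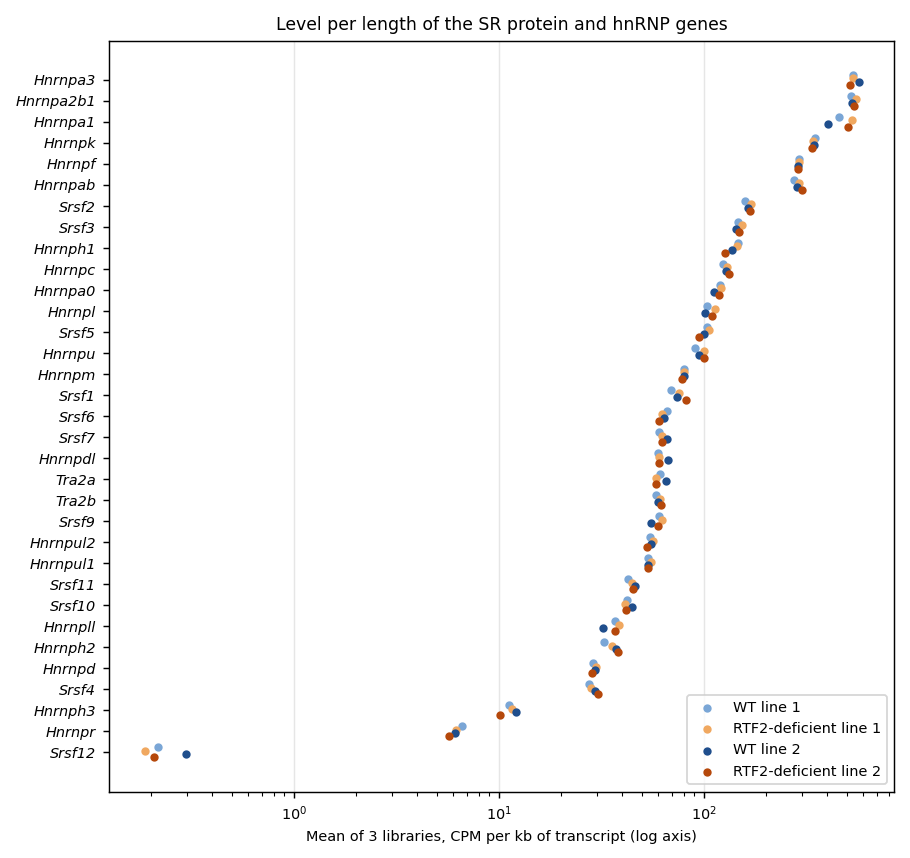
Level per length of each member, as the mean CPM per kb of transcript over the 3 libraries of each of the 4 groups on a log axis, ordered by the mean over 12 libraries. The hnRNP A type genes lead at 474 to 538 CPM per kb, Srsf12 lies far below all others at 0.227, and the 4 groups of a gene lie close together.

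None of the 33 members differed between RTF2-deficient and WT cells at an adjusted p under 0.05, and the median log2 fold change of the members over both lines was 0.02. Among the 14263 genes tested, 13.2% passed that threshold, and 1.74% passed it with a log2 fold change beyond 1 in size, a rule which 0 members met. At an unadjusted p under 0.05 the edgeR quasi-likelihood test gave 1 member, Hnrnpl, against 28.5% of all genes tested. DESeq2 also gave 0 members after adjustment and gave 2, Hnrnpa1 and Hnrnpl, before it. No member had its 6 RTF2-deficient libraries all above or all below its 6 WT libraries, as 5.97% of all genes tested did. The absolute log2 fold change had a median of 0.07 for the members, 0.15 for all genes tested and 0.11 for the 7484 genes with a mean over 20 CPM. Members other than Srsf12 had a mean of 24.9 CPM or more, and 13.9% of the genes over 20 CPM were called.

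The size of change that the libraries could have hidden follows from the intervals. The SE of a member's log2 fold change over both lines had a median of 0.0782 and lay between 0.0433 and 0.130 for the 32 members other than Srsf12. Their 95% intervals reached from -0.34 at the lowest bound to 0.55 at the highest. The interval of 27 members lay within 0.3 of no change on the log2 scale, that of 31 members lay within 0.5, and that of 32 lay within 1. Only the interval of Srsf12, from -1.14 to 0.39, reached past a log2 fold change of -1. A change of 1 on the log2 scale, the fold the study required, thus lay outside the interval of every member but Srsf12. These intervals rest mainly on the spread between technical replicates, so they do not cover the spread between embryos.

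**Figure D2:**
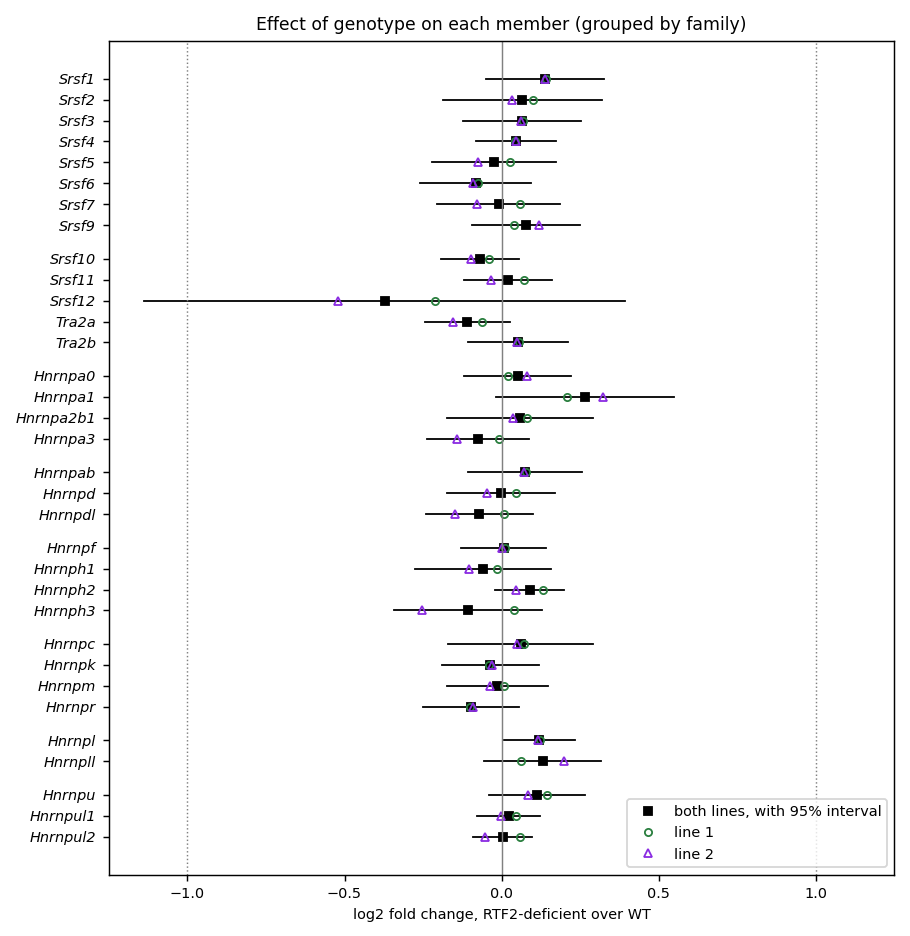
The log2 fold change of each member, RTF2-deficient over WT, with squares and bars for the estimate over both lines and its 95% interval, circles for line 1 and triangles for line 2, and dotted lines at -1 and 1. The estimates of 32 members lie between -0.11 and 0.27, and Srsf12 is at -0.37 with a wide interval.

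Among the 8 classical SR genes, whose proteins promote recognition of exons, 5 had a positive fold change in each line, 1 had a negative one in each line and 2 differed in sign between the lines. Their log2 fold changes over both lines lay between -0.08, for Srsf6, and 0.14, for Srsf1, the founding member of the family. Srsf2, the SC35 protein of nuclear speckles, is encoded at chr11:116849897-116853675 on the minus strand (GRCm38) and was counted at 253, 316 and 338 CPM in WT line 1 and at 287, 337 and 347 CPM in RTF2-deficient line 1. In line 2 it was counted at 242, 356 and 343 CPM in WT and at 358, 343 and 261 CPM in RTF2-deficient cells. The genotypes overlapped in both lines, with 1 low library in each group, and the log2 fold change was 0.07 (95% interval from -0.19 to 0.32).

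Srsf3, the smallest SR protein and an adaptor of mRNA export, lies at chr17:29032660-29043372 on the plus strand. Its values were 347, 373 and 433 CPM in WT line 1 and 383, 414 and 411 CPM in RTF2-deficient line 1. In line 2 they were 301, 415 and 405 CPM in WT and 420.3, 395 and 356 CPM in RTF2-deficient cells. Again the genotypes overlapped, with a log2 fold change of 0.07 and an interval from -0.12 to 0.25. Srsf5, at chr12:80945495-80950507 on the plus strand, ran from 136 to 194 CPM with a median of 161 CPM over the 6 WT libraries and from 135 to 181 CPM with a median of 156 CPM over the 6 RTF2-deficient ones. Its log2 fold change of -0.02 had opposite signs in the lines, 0.03 in line 1 and -0.07 in line 2.

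The 5 SR-like genes comprise Srsf10, Srsf11 and Srsf12 and the transformer-2 homologues Tra2a and Tra2b, which bind GAA-rich enhancers. Of these, 3 had a negative fold change in each line, 1 a positive one in each line, and 1 differed in sign. Tra2a had a log2 fold change of -0.11 (SE 0.062, edgeR's quasi-likelihood test, Benjamini-Hochberg adjusted p = 0.27), while its paralog Tra2b was at 0.05. Srsf12 had the most negative value of all members, -0.37, from counts of 41, 21 and 17 in WT line 1, 24, 24 and 20 in RTF2-deficient line 1, 74, 26 and 19 in WT line 2 and 16, 22 and 39 in RTF2-deficient line 2. In WT of both lines and in RTF2-deficient line 2 a single library held the highest count of Srsf12, and the genotypes overlapped.

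The 4 genes of the hnRNP A type held the member with the most positive fold change. Hnrnpa1, a repressor of exon inclusion encoded at chr15:103239943-103246698 on the plus strand, was counted at 737, 961 and 930.1 CPM in WT line 1 and at 920.0, 1101 and 1018 CPM in RTF2-deficient line 1. In line 2 it was counted at 572, 946 and 805 CPM in WT and at 1115, 1013 and 779.6 CPM in RTF2-deficient cells. The mean was higher in RTF2-deficient cells in both lines, yet 1 or more RTF2-deficient libraries of each line fell below the highest WT library. In line 1, where libraries of the same number deviated together, each RTF2-deficient library was above the WT library of its number, and with a replicate block the log2 fold change of line 1 was 0.22 (edgeR's quasi-likelihood test, Benjamini-Hochberg adjusted p = 0.689). The log2 fold change was 0.27 over both lines, 0.21 in line 1 and 0.32 in line 2 (edgeR's quasi-likelihood test, SE 0.130, 95% interval from -0.02 to 0.55, Benjamini-Hochberg adjusted p = 0.20 over both lines). Hnrnpa1 has many processed copies in the genome, and reads shared with them could be split by the counting. The pseudogene row left out had between 22 and 48 counts in a library, against 26361 to 46374 counts for Hnrnpa1.

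Hnrnpa2b1, which also binds UAG-containing RNA, lies at chr6:51460434-51470048 on the minus strand. Its 6 WT libraries ran from 709.9 to 1022 CPM with a median of 915 CPM, and its 6 RTF2-deficient libraries from 757 to 994 CPM with a median of 945 CPM. Every RTF2-deficient library lay inside the range of WT, and the log2 fold change was 0.06 with an interval from -0.17 to 0.29. Hnrnpa3, at chr2:75659105-75669407 on the plus strand, ran from 807.5 to 1021 CPM in WT and from 764 to 903.5 CPM in RTF2-deficient cells, with medians of 926 and 894 CPM. Its log2 fold change was -0.08, with -0.01 in line 1 and -0.14 in line 2, and the groups overlapped in both lines. Hnrnpa0, an intronless paralog, stood at 0.05.

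In the AB and D type, 3 genes whose proteins include the AU-rich element binder AUF1 (Hnrnpd), log2 fold changes lay between -0.07 and 0.07, and 2 of the 3 differed in sign between the lines. The 4 genes of the F and H type, which bind runs of G next to splice sites, lay between -0.11 for Hnrnph3 and 0.09 for Hnrnph2. Hnrnpc, Hnrnpk, Hnrnpm and Hnrnpr lay between -0.10 and 0.06. Hnrnpc binds U tracts and keeps U2AF off cryptic exons, and it was at 0.06. The hnRNP U type, nuclear scaffold proteins that also bind RNA, lay between 0.00 for Hnrnpul2 and 0.11 for Hnrnpu.

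Both genes of the L type, whose proteins bind CA repeats, had positive fold changes in each line. Hnrnpl, at chr7:28808546-28822268 on the plus strand, had 268, 274 and 294 CPM in WT line 1 and 295, 295 and 319.8 CPM in RTF2-deficient line 1. In line 2 it had 246, 286 and 284 CPM in WT and 298, 299.8 and 287 CPM in RTF2-deficient cells. Within each line the RTF2-deficient libraries lay above the WT libraries of that line, by narrow margins, while across lines the ranges overlapped. The log2 fold change was 0.12 (SE 0.0516, 95% interval from 0.01 to 0.23), and the edgeR quasi-likelihood test gave an unadjusted p of 0.0393 and a Benjamini-Hochberg adjusted p of 0.152. In 6 of the 12 fits of that test without 1 library the unadjusted p of Hnrnpl was 0.05 or more, up to 0.0955 without replicate 3 of RTF2-deficient line 1. Without the 4 libraries set apart further on, its log2 fold change was 0.09 with an unadjusted p of 0.101 by edgeR. Hnrnpll, known for the splicing of Ptprc in lymphocytes, was at 0.13.

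**Figure D3:**
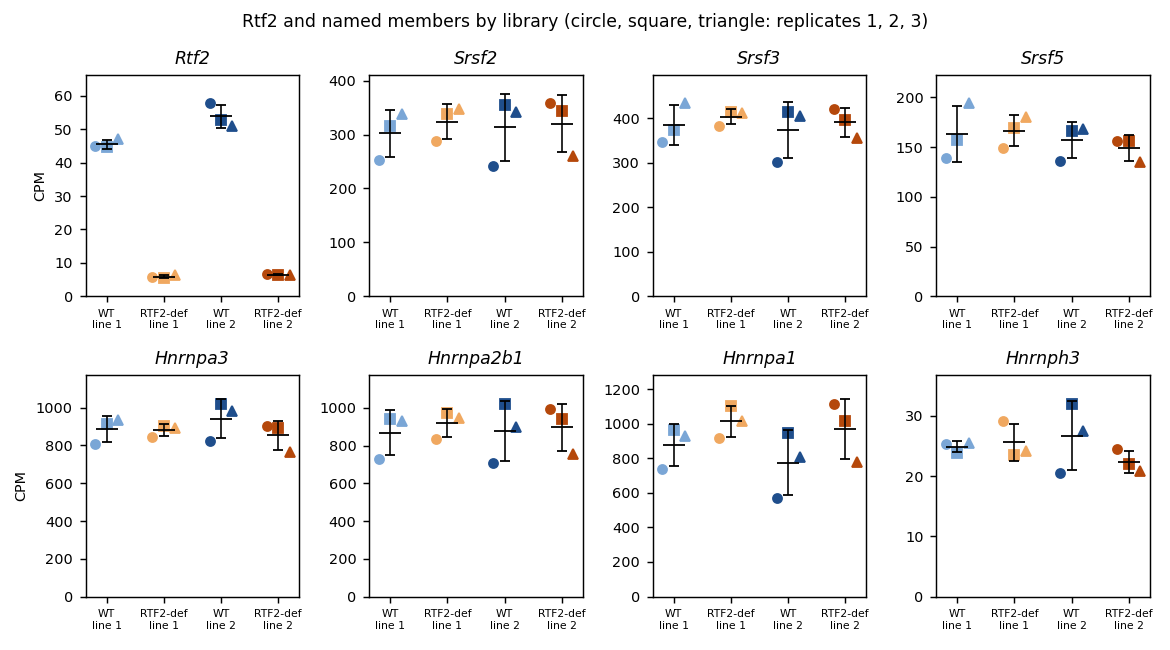
CPM of Rtf2 and of 7 members in each of the 12 libraries by group, with circles, squares and triangles for replicates 1, 2 and 3, and bars for the mean and SD of 3 libraries on axes that start at 0. The genotypes separate for Rtf2 and overlap for the 7 members. Hnrnph3 was added after its values were seen.

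No member was called when the lines were taken apart. In line 1, edgeR's quasi-likelihood test called 0 of 33 members after adjustment, against 3.2% of all genes tested, and 0 passed an unadjusted p under 0.05, against 13.9%. In line 2, 0 members passed the adjusted threshold, against 12.5% of all genes, and 0 the unadjusted one, against 27.8%. DESeq2 gave 0 members in each line by either threshold. The log2 fold change was above 0 for 25 members in line 1, with a median of 0.05, and for 16 in line 2, with a median of 0.00, and the estimate of line 2 minus line 1 was below 0 for 26 of 33 members. The sign of the fold change was positive in both lines for 16 members, negative in both for 8 and opposite for 9. The difference between the effects of the 2 lines passed the adjusted threshold for 0 members (1.29% of all genes) and the unadjusted one for 0 (8.49% of all genes) by edgeR, and for 0 by DESeq2. Its lowest adjusted p for a member was 0.87.

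The WT lines were also compared with each other as a measure of how far members differ between the lines. Embryo, immortalization and culture cannot be told apart in this comparison. The 12 interferon-stimulated genes had a median log2 difference of 4.09, WT line 2 over WT line 1. By edgeR's quasi-likelihood test 0 members passed the adjusted threshold, against 14.0% of all genes, and 1 passed the unadjusted one, against 28.1%, as did 1 in DESeq2. That member was Hnrnph2, an X-linked paralog of Hnrnph1, with 123, 137 and 131 CPM in WT line 1 and 161, 143 and 140.2 CPM in WT line 2. All 3 libraries of line 2 lay above those of line 1, with a log2 difference of 0.19 (edgeR's quasi-likelihood test, SE 0.0725, Benjamini-Hochberg adjusted p = 0.119). Replicate 1 of WT line 2 held the highest value, and in 6 of the 12 fits without 1 library the unadjusted p was 0.05 or more, with a highest value of 0.148 without that replicate. Without the 4 libraries set apart below, the log2 difference of Hnrnph2 was 0.08 with an unadjusted p of 0.272 by the same edgeR fit. The median size of the log2 difference between the WT lines was 0.07 for the members, 0.19 for all genes tested and 0.13 for the genes over 20 CPM.

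Sister libraries of a group also differed in the members. The largest fold between 2 libraries of 1 group had a median of 1.30 over the 32 members other than Srsf12. It exceeded the fitted fold between genotypes for all 33 members and for 91.9% of all genes tested, so that this count is near its background. It was widest for Hnrnpa1 among these hnRNPs, at 1.65 in WT line 2, and narrowest for Hnrnpul2, at 1.10. Hnrnpul1, whose protein takes part in the response to DNA breaks, was next at 1.13. Among SR genes other than Srsf12 it was widest for Srsf2, at 1.47, and narrowest for Srsf4 and Srsf10, both at 1.17.

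Most members shared these differences. On the log2 scale, relative to the mean of the 12 libraries, the median of the 33 members was -0.14, 0.01 and 0.06 in the 3 libraries of WT line 1 and -0.07, 0.07 and 0.05 in those of RTF2-deficient line 1. It was -0.18, 0.10 and 0.05 in WT line 2 and 0.09, 0.05 and -0.15 in RTF2-deficient line 2. Each group thus held 1 low library, replicate 1 in 3 groups and replicate 3 in RTF2-deficient line 2. In WT line 1, 29 of the 33 members were lowest of the 3 libraries in replicate 1, where 39% of all genes tested were lowest. In RTF2-deficient line 1 the count for replicate 1 was 23, with 36.5% of all genes. In line 2 the counts were 29 for replicate 1 of WT, with 38.6% of all genes, and 29 for replicate 3 of RTF2-deficient cells, also with 38.6% of all genes. Among genes over 20 CPM the shares lay between 41.1% and 47.9%.

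The low library of each group was lowest for 9 to 11 of the 13 SR members and for 14 to 19 of the 20 hnRNPs. The members together held 0.985% of all counts in the low library of WT line 2 and 1.20% and 1.16% in its sisters. Counted over groups, 22 members were lowest in the low library of all 4 groups, 4 in 3 groups, 5 in 2 groups and 2 in none, where 15.7% of all genes tested and 23.2% of the genes over 20 CPM were lowest in all 4. The 2 that were lowest in none were Srsf11 and Srsf12, and Srsf12 was highest of the 3 libraries there in 3 groups. Of the related lists, 10 of 21 hnRNP relatives, 12 of 27 SR-related genes and 7 of 24 other regulators were lowest in all 4 of these libraries. These libraries were recognized from the data and are not groups of the study. As libraries with a low median of the members, they must be lowest for many members, so the counts describe the pattern only. The counts over groups were made in the library with the highest interferon-stimulated median, which was the same library in each group.

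Other measures moved with the same libraries. In each group the low library was the one with the highest median of the 12 interferon-stimulated genes. That median, relative to the mean of all libraries, was 0.53, -2.63 and -1.77 in WT line 1 and -1.34, -2.62 and -2.37 in RTF2-deficient line 1. It was 4.44, 1.21 and 3.01 in WT line 2 and -1.43, -0.14 and 3.34 in RTF2-deficient line 2. Proliferation genes and markers of cell types moved as well. The median log2 difference of the low library from the mean of its sisters, in the order WT line 1, RTF2-deficient line 1, WT line 2 and RTF2-deficient line 2, was -0.19, -0.13, -0.29 and -0.21 for the 33 members and -0.15, -0.12, -0.19 and -0.18 for the 9 proliferation genes, negative in each group for both. It was 0.26, 0.22, 0.04 and 0.25 for the 10 fibroblast markers. It came to 0.35, 0.10, 0.06 and 0.01 for the 2 endothelial markers tested and 0.24, 0.04, 0.61 and 0.02 for the 3 of blood and macrophages, so these 3 lists were positive in each group. The values were 0.34, 0.31, -0.61 and -0.08 for the 2 nerve markers tested and -0.05, -0.99, 0.26 and -0.13 for the 5 epithelial ones. For the 3 muscle markers tested it was -0.07, -0.22, -0.32 and 0.07, and these last 3 lists had no common sign. The fibroblast list summed to between 21957 and 33215 CPM in WT and between 24193 and 34994 CPM in RTF2-deficient libraries, and the nerve list to 57.4 to 122 CPM and 67.9 to 131 CPM, with none of their markers at 0 in every library. Library totals of the low libraries, between 41461713 and 43769936, lay inside the range of the others. Replicate 3 of WT line 2 was at 3.01 for the interferon list and at 0.05 for the members. The part of these measures in the levels of the members was not tested, and in bulk RNA fewer cells of a kind and less RNA per cell cannot be told apart.

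**Figure D4:**
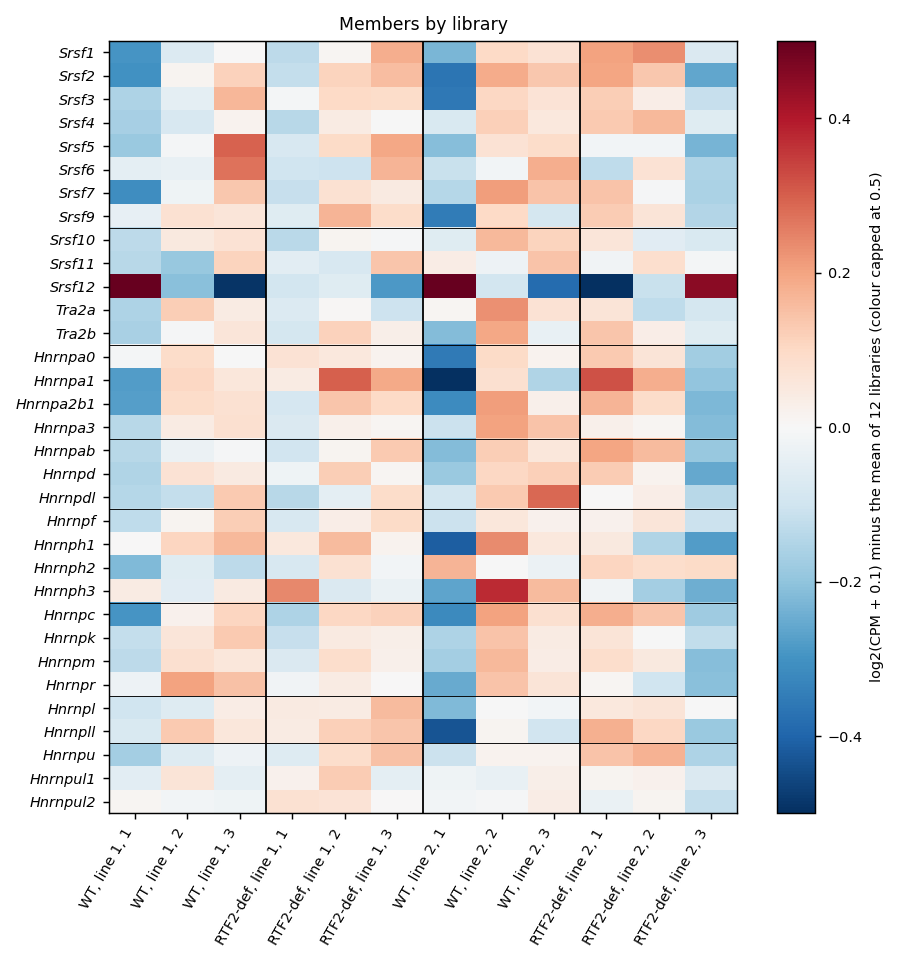
The 33 members, ordered by family, in the 12 libraries, ordered by group and replicate, as log2(CPM + 0.1) minus the mean of the 12 libraries. Blue columns mark replicate 1 of both WT groups and of RTF2-deficient line 1 and replicate 3 of RTF2-deficient line 2, which were lowest for 29, 29, 23 and 29 members.

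**Figure D5:**
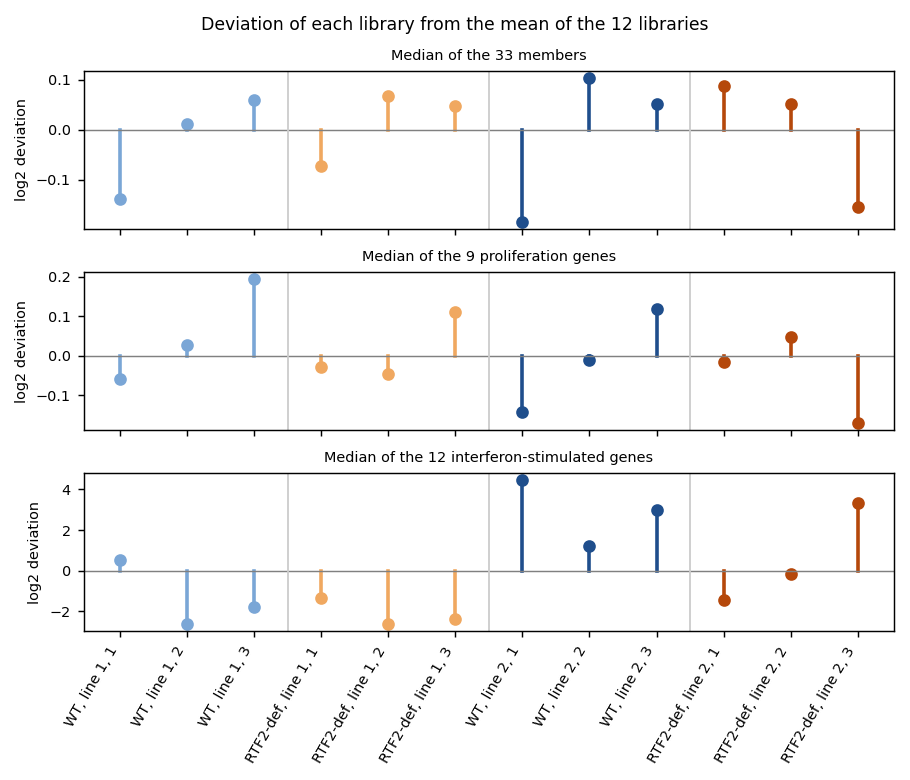
Medians of the 33 members, of 9 proliferation genes and of 12 interferon-stimulated genes in each library, as log2 deviations from the mean of the 12 libraries. In each group the library with the lowest median of the members has the highest median of the interferon-stimulated list, and the vertical scales differ.

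With these 4 libraries left out, an alternative added after the data had been seen, the comparison over both lines again called 0 of 33 members at an adjusted p under 0.05, against 15.2% of all genes, and 7 at an unadjusted one, against 32.7% of all genes. In line 2 it called 1 member, Hnrnph3, against 21.0% of all genes. Hnrnph3, a shorter relative of Hnrnph1 at chr10:63014664-63023980 on the minus strand, had 20.6, 32.0 and 27.6 CPM in WT line 2 and 24.4, 22.0 and 20.9 CPM in RTF2-deficient line 2. Without replicate 1 of WT and replicate 3 of RTF2-deficient cells the remaining 2 libraries of each genotype did not overlap, and the log2 fold change was -0.36 (SE 0.101, edgeR's quasi-likelihood test, Benjamini-Hochberg adjusted p = 0.0394). With all libraries it was -0.25 in line 2, with an adjusted p of 0.287, and 0.04 in line 1. In line 1 its values were 25.4, 23.8 and 25.5 CPM in WT and 29.2, 23.5 and 24.2 CPM in RTF2-deficient cells, which overlapped. The fit with 8 libraries tested the difference between the lines at an adjusted p of 0.428. In that fit Hnrnph3 was higher in WT line 2 than in WT line 1 by 0.27 on the log2 scale. The edgeR quasi-likelihood test gave an unadjusted p of 0.0273 and a Benjamini-Hochberg adjusted p of 0.125 for it.

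Promoters are shown for the members at the ends of this range, as the genes that moved most and least between sister libraries once Srsf12, with its low counts, was set aside: Srsf2 (chr11:116853095-116853344, minus strand), Srsf4 (chr4:131873387-131873636, plus strand, the first of its 3 promoters), Hnrnpa1 (chr15:103240147-103240396, plus strand) and Hnrnpul1 (chr7:25754760-25755009, minus strand), where Srsf4 and Hnrnpul1 are the narrowest of their family among members that have a promoter in the table. The 250 bases before each start site are given 5′ to 3′ from RefSeq's GRCm38.p6, with capitals for GGGCGG (the GC box), for CCAAT (the CCAAT box), for TATAAA (the TATA box) and for CCGGAAG (an ETS core), each on either strand, where neighbouring matches can share bases.
Srsf2: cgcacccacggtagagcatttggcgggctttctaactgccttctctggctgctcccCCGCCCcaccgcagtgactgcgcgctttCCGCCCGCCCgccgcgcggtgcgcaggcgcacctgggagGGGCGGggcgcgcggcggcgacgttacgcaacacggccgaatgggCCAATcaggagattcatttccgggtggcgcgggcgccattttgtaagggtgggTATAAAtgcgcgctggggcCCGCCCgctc
Srsf4: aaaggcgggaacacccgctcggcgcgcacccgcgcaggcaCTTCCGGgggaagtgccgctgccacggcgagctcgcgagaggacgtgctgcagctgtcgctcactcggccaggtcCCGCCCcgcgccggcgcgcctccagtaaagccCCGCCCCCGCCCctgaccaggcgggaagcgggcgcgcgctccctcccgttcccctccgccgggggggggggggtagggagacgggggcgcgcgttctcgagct
Hnrnpa1: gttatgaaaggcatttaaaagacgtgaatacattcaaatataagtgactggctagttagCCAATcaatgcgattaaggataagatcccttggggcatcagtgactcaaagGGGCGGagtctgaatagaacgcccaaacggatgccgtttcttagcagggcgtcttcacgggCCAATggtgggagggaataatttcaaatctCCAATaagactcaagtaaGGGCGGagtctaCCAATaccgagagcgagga
Hnrnpul1: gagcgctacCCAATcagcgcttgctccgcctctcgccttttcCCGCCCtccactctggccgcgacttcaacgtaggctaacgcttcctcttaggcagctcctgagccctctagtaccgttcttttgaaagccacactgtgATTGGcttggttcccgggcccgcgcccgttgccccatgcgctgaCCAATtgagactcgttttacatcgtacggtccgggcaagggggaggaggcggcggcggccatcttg
Srsf2 held 5 GGGCGG matches, 1 CCAAT and 1 TATAAA, and Srsf4 held 3 GGGCGG and 1 CCGGAAG. Hnrnpa1 held 4 CCAAT and 2 GGGCGG in a window of 46.0% GC, the lowest of the members' promoters, and Hnrnpul1 held 3 CCAAT and 1 GGGCGG. The windows of Srsf2, Hnrnpa1 and Hnrnpul1 lay inside the spans of their genes, and that of Srsf4 lay partly inside. Each start site used was thus downstream of the outermost end of its gene.

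Promoters in RefSeq's table were matched for 31 of the 33 members, with 43 promoters in all, and Hnrnpul2 and Hnrnpll were not matched. Over the 250 bases before each start site, the median GC content was 68.0% for the members and 52.4% for all 32851 promoters. The ratio of observed to expected CpG exceeded 0.6 in 97.7% of the members' promoters and in 34.0% of all. GGGCGG, the GC box, was present on either strand in 81.4% of the members' promoters and 32.7% of all, CCAAT in 48.8% and 33.8%, and CCGGAAG, an ETS core, in 20.9% and 6.91%. TATAAA was in 6.98% of the members' promoters and 12.4% of all. Of the letters bound by interferon-activated factors, GAAANNGAA was in 2.33% of the members' promoters and 7.13% of all, and TTCNNNGAA in 6.98% and 7.02%. A match describes letters in a window, and promoters of 1 gene overlap in part.

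Genes that act with the members were counted from 3 further lists. Of 27 SR-related genes and SR protein kinases, 2 were higher and 2 lower in RTF2-deficient cells at an adjusted p under 0.05, a share close to the 13.2% of all genes. The 2 lower ones, Clk2 and Srpk1, are among 6 kinases of SR proteins on the list, and the other 4 were not called, with log2 fold changes of -0.08 for Clk1, -0.02 for Clk3, -0.03 for Clk4 and -0.02 for Srpk2. Clk2 was counted at 16.9, 18.3 and 18.8 CPM in WT line 1 and 12.5, 10.9 and 13.1 CPM in RTF2-deficient line 1, and at 17.7, 18.5 and 19.8 CPM in WT line 2 and 10.2, 11.2 and 15.1 CPM in RTF2-deficient line 2. Its log2 fold change was -0.59 (SE 0.0926, edgeR's quasi-likelihood test, Benjamini-Hochberg adjusted p = 0.00143), and the genotypes did not overlap. Srpk1, the kinase that phosphorylates SR proteins in the cytoplasm, ran from 58.5 to 79.9 CPM in WT and from 46.4 to 55.2 CPM in RTF2-deficient cells, without overlap. Its log2 fold change was -0.51 (SE 0.0833, edgeR's quasi-likelihood test, Benjamini-Hochberg adjusted p = 0.00185).

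The 2 higher genes of that list encode proteins of the exon junction complex and its periphery, Acin1 at a log2 fold change of 0.33 and Pnn at 0.35. Of 21 hnRNP relatives under other symbols, 2 were higher, Msi1 at 0.78 and Ptbp2 at 0.25, and 1 was lower, the cold-inducible protein gene Cirbp at -0.74. Of 24 other regulators of alternative splicing that were tested, Mbnl1 was higher at 0.16, and Rbm4 and Rbfox2 were lower at -0.30 and -0.19. The calls in these lists, 3 of 21 and 3 of 24, were also close to the 13.2% of all genes. The medians of the 3 lists were 0.02, 0.06 and 0.05, beside 0.02 for the members and 0.00 for all genes tested. Whether Clk2 and Srpk1 differed from the members in their response was not tested.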

How the data were processed

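The values deposited by the authors are raw counts, whole numbers of reads for each gene in each library. Salmon with tximport is the counter in the study's methods, but HTSeq with mm10 stands in the submitters' processing notes. Which of them made the table is not settled, and strandedness is not given in the sources used here. Symbols and promoters came from RefSeq's GRCm38.p6, which held 24045 of 24100 identifiers, and transcript lengths from GENCODE. Library totals lay between 39360167 and 44695002 counts. A count of 0 allows up to 3 counts, or 0.0762 CPM in the shallowest library, for counting error only.

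Genes kept by filterByExpr were normalized by TMM and tested with edgeR 4.0.16 (glmQLFit, glmQLFTest, R 4.3.3), with terms for line and genotype over both lines and a layout of the 4 groups for each line, the difference between lines and the WT lines. CPM values are TMM-normalized. The fits were tested on simulated data. Alternatives, with DESeq2 1.42.0 and voom of limma 3.58.1 among them, are given with their effect in the closing section. Deviations of same-numbered libraries from their group means correlated at 0.625, 0.43 and 0.484 in line 1 and at -0.587, 0.17 and -0.279 in line 2, so the numbers were taken to pair libraries in line 1 and not in line 2. In line 2 the library lowest for most members was replicate 1 in WT and replicate 3 in RTF2-deficient cells, and whether a number marks the same preparation in both genotypes is not stated.

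Values by library were given for Rtf2, which is not a member, for any member called, and for the 3 SR and 3 hnRNP genes highest per length. The other members so described, Hnrnpl, Hnrnph2 (WT libraries only), Hnrnph3 and Srsf12, were chosen after their values were seen. The members, the families and all lists were chosen with earlier results of these data known.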

Additional observations from a re-analysis of the deposited data

How the results depend on the processing

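Of 159 counts of called members recomputed under the alternatives (RLE and upper-quartile normalization, no filter, 1 CPM in 6 libraries, DESeq2, voom, no line term, each line alone, a replicate block, each library left out, and the 4 interferon-highest libraries left out), 158 were 0. A further 8 counts with a fold threshold and 2 from summed triplicates, a fit that called no gene at all, had to be 0 and say nothing of stability. The exception was the count of members lower in line 2, which was 1 with the 4 libraries left out. Over both lines the lowest adjusted p of a member in any of these was 0.0549. The median log2 fold change of the members was between 0.005 and 0.048 over all alternatives, with the same limits when single libraries were left out. Under the replicate block 0 members were called and the members' median was 0.02, while the genes called in line 1, where the numbers pair the libraries, went from 456 to 242, and the block could not be fitted for the comparison of the WT lines. The unadjusted results for Hnrnpl and Hnrnph2 each lost an unadjusted p under 0.05 in 6 of 12 fits without 1 library. Over both lines the genes called numbered 1878, against 2702 in DESeq2, 1427 under the replicate block and 0 with triplicates summed. Srsf5, at -0.02, lay between -0.064 and 0.037 with single libraries left out and changed sign in 5 of these 12 fits. Rtf2 lay at -3.02 with triplicates summed, where 4 sums were fitted and its adjusted p was 0.102. Depth limits Srsf12, with 16 to 74 counts in a library. For the other members the spread between sister libraries enters the intervals, and 2 lines limit what holds across embryos.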
